A study of Mus musculus with 7 samples.

Results

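Tuft cells are rare chemosensory cells of the intestinal epithelium that arise, like all its other cell types, from Lgr5+ stem cells of the crypt. They depend on the transcription factor Pou2f3, sense luminal signals through a taste-like cascade that ends in the cation channel Trpm5, and release the cytokine IL-25 and lipid mediators made from arachidonic acid. In the gut they are known for the circuit in which IL-25 activates type 2 innate lymphoid cells, whose IL-13 then acts back on the stem cells. The open chromatin of 10 genes that mark or serve tuft cells is described here in sorted Lgr5+ stem cells. The genes were Pou2f3, Gfi1b, Trpm5, Il25, Il17rb, Alox5, Ptgs1, Avil, Dclk1 and Sh2d6, 10 of 21631 protein-coding genes in the annotation. They were chosen on a result of these same libraries, in which a longer list of tuft cell genes held more peaks in Allo than in Syn libraries. The differences between the groups below are therefore given as a description, with no test.

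Omni-ATAC-seq maps open chromatin by the insertions of a transposase, and regions with many insertions are called as peaks. The cells carried a GFP reporter of Lgr5 (strain B6-GFP-Lgr5) and were sorted 7 days after lethal irradiation and bone marrow transplantation, 50000 cells for each library. Each library was an independent pool of 3 to 4 female mice of 8 to 12 weeks. All recipients were irradiated, and the controls were transplanted too. Syn recipients had syngeneic B6-GFP-Lgr5 marrow (3 libraries), and Allo recipients had marrow of BALB/c donors (4 libraries). Donor T cells of such a mismatched graft can attack the gut, which is known as graft-versus-host disease. The deposited lists held 71925, 73668 and 76438 peaks in Syn 1 to 3 and 62977, 76091, 88861 and 81719 in Allo 1 to 4, on chromosomes 1 to 19 and X, and the number of reads behind them is unknown. Allo 3 and Allo 4, the longest lists, name their peaks by another scheme than the other 5, and the sources used here do not say if 1 caller and setting served all 7. Of the stem cell genes, Lgr5 among them, 8 of 8 had a peak within 1 kb of a start in all 7 libraries, as did 6 of 8 enterocyte, 5 of 7 goblet cell and 5 of 10 enteroendocrine genes, so start peaks do not single out stem cells.

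A peak belonged to a gene if its summit, the position of strongest signal, lay in the gene body, or if that gene was the nearest protein-coding gene within 50 kb. Overlapping peaks of the 7 libraries were merged into 103809 regions, of which 76 belonged to the 10 genes, 49 in gene bodies and 27 outside. No summit assigned to the 10 genes was farther than 33.4 kb from its gene. Strength was read as a rank percentile within each library, from 0 for the weakest to 100 for the strongest peak, by the deposited significance of the peak. Such ranks are relative to the other peaks of a library, and ranks from lists of different length show no change on their own.

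The start sites that the results below turn on are shown first, as the 250 bases before the transcription start in RefSeq (GRCm38.p6, the same build as mm10), 5′ to 3′ on the strand of the gene. Capitals mark bases inside a merged region of open chromatin. The first is Gfi1b (chr2:28621983-28622232, minus strand), whose start lay in the single region of these genes with a peak in all Allo and no Syn libraries, though a weak one. Dclk1 (chr3:55242114-55242363, plus strand) and Avil (chr10:127000459-127000708, plus strand) lay whole in regions that ranked higher in every Allo library. Alox5 (chr6:116461179-116461428, minus strand) was open at its start in all 7 libraries, at low and variable rank. Il17rb (chr14:30008897-30009146, minus strand) was strongly open in all 7, in a region shared with the start of its neighbour Chdh.
Gfi1b: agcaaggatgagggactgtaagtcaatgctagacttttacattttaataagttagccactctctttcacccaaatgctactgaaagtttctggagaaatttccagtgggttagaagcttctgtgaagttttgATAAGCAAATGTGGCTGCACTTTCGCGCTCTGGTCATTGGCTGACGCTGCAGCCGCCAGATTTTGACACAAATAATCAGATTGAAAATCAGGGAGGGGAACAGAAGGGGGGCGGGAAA
Dclk1: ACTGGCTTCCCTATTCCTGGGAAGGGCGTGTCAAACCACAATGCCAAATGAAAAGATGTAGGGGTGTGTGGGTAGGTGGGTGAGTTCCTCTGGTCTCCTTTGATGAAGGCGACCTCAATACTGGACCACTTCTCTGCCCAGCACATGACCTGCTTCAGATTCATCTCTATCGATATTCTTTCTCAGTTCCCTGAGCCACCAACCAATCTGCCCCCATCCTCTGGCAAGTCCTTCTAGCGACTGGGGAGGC
Avil: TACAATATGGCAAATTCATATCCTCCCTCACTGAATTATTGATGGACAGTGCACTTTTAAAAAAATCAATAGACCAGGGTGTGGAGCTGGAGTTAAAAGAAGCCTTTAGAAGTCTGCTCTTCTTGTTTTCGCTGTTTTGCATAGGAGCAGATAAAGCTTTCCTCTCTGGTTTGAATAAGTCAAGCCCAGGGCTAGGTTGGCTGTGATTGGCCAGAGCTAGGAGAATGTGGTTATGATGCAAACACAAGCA
Alox5: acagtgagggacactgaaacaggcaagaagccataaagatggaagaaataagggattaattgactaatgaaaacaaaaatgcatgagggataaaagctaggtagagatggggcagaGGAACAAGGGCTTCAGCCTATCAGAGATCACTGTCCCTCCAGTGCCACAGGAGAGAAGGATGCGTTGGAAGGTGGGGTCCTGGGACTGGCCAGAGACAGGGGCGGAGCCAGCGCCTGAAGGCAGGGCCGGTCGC
Il17rb: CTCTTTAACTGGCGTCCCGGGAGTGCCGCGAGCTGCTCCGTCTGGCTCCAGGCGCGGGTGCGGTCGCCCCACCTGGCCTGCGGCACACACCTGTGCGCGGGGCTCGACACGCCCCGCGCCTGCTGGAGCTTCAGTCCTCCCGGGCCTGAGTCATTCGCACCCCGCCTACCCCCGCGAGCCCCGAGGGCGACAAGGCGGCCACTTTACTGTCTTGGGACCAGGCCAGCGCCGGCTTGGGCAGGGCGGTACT
In Gfi1b, 118 of the 250 bases, from position -118 to -1 counted from the start, lay in the merged region. Its upstream edge was that of the Allo 3 peak alone. The peaks of Allo 1 and Allo 4 reached only to -25 and -12, and that of Allo 2 began 7 bp inside the gene. In Alox5 the 134 bases nearest the start lay in the merged region. The Il17rb stretch was the richest in G and C of the 5, with 72.0%, against 42.0% in Avil, 44.4% in Gfi1b, 52.4% in Dclk1 and 52.8% in Alox5. The 8 genes with an entry in the promoter table gave 9 such windows, since Dclk1 has 2 starts. They were searched on both strands for a POU octamer (ATGCAAAT), a STAT-type GAS element (TTCNNNGAA), the core of an interferon-stimulated response element (GAAANNGAA) and a TCF/LEF core (CTTTGAT). The GAS letters occurred once, in Gfi1b from -133 to -125, just upstream of the region, and the TCF/LEF letters once, in Dclk1 from -153 to -147. The octamer and the interferon element occurred in 0 of 9 windows. Among all 32851 windows of the table, 1.60% held the octamer, 7.02% the GAS letters, 7.13% the interferon core and 3.21% the TCF/LEF core. These matches describe letters and no binding was measured.

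Peaks of tuft cell genes were present in every library of both groups, and they took a larger share of the peaks in each Allo library. The 10 genes held 44, 46 and 40 peaks in Syn 1 to 3 and 47, 50, 69 and 64 in Allo 1 to 4. Per 10000 peaks of the library this was 6.12, 6.24 and 5.23 in Syn and 7.46, 6.57, 7.76 and 7.83 in Allo. The lowest Allo library, Allo 2, lay just above the highest Syn library, Syn 2, and the groups did not overlap. The means were 5.86 ± 0.551 in Syn (SD, n = 3) and 7.41 ± 0.580 in Allo (SD, n = 4), a ratio of 1.26. The density counts each of several separate peaks within 1 merged region. Counted as merged regions, the 10 genes held 43, 45 and 39 in Syn and 44, 47, 69 and 62 in Allo. These counts, not scaled to list length, overlapped, as Allo 1 lay below Syn 2. Fewer cells that carry an open site and less signal per cell cannot be told apart in such bulk libraries.

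**Figure D1:**
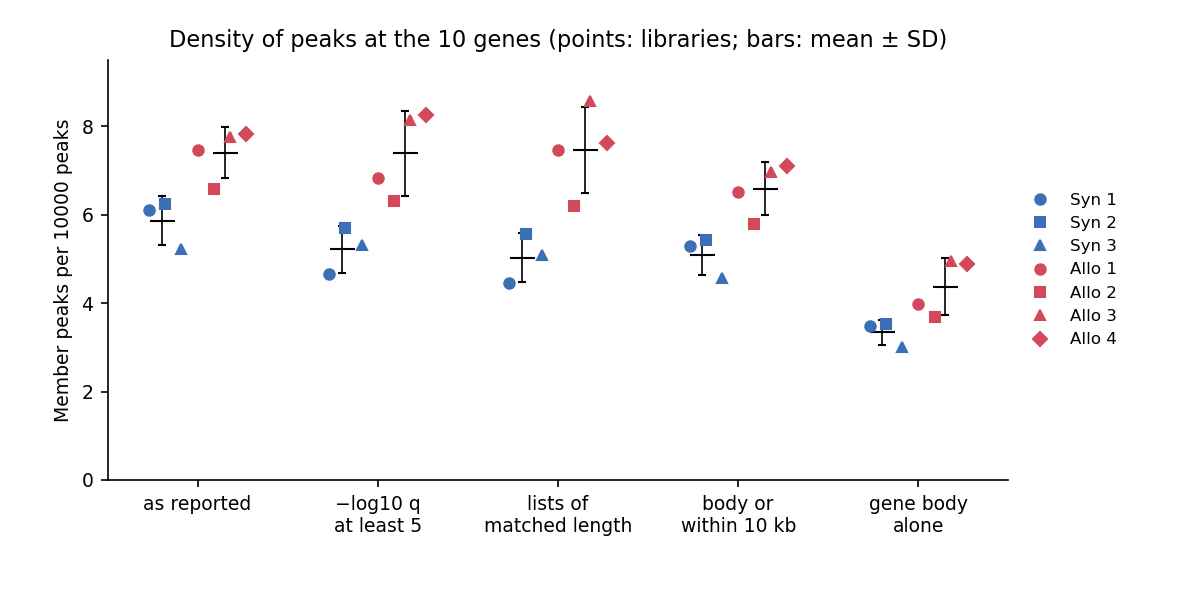
Peaks at the 10 tuft cell genes per 10000 peaks of the library (vertical axis, linear from 0), for the 3 Syn (blue) and 4 Allo libraries (red), as reported and under 4 other ways of choosing or assigning peaks. Points are libraries and bars give mean ± SD; each Allo point lies above each Syn point in all 5 settings, with means of 5.86 and 7.41 as reported.

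The lists differed in length and in peak width, so the density was recomputed on lists of equal length. With every list reduced to its 62977 strongest peaks, the density was 4.45, 5.56 and 5.08 in Syn and 7.46, 6.19, 8.57 and 7.62 in Allo. The distance between the groups grew from 1.54 to 2.43 peaks per 10000. Without Allo 3 and Allo 4, the libraries with the other naming scheme, it was 1.15, and without Allo 1 and Allo 2 it was 1.93. Mean peak width over all peaks moved with the group: it was 623, 639 and 624 bp in Syn and 586, 571, 611 and 598 bp in Allo. Its part in the result was not tested. Summed over the 10 genes, peaks covered 23.2, 25.2 and 22.8 kb in Syn and 22.8, 23.9, 41.5 and 32.8 kb in Allo, so by covered length the groups overlapped and Allo 3 and Allo 4 stood above the rest.

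A peak within 1 kb of a start was present for 9, 8 and 9 of the 10 genes in Syn and for 8, 8, 9 and 9 in Allo. Over all genes, 64.2 to 65.1% had such a peak in Syn and 62.8 to 66.0% in Allo. The direction at the 10 genes depended on the setting: Allo minus Syn was -0.167 genes as reported, 0.583 with a −log10 q of at least 5, 1.17 with a 500 bp window and 1.5 with lists of matched length. Peaks outside the gene bodies numbered 19, 20 and 17 in Syn and 22, 22, 25 and 24 in Allo, without overlap. Peaks inside the bodies numbered 25, 26 and 23 in Syn and 25, 28, 44 and 40 in Allo, where Allo 1 and Syn 1 were equal.

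Counts of single genes mostly overlapped. Mean counts were higher in Allo for 10 of 10 genes, with a median difference of 1.33 peaks, while of 17234 genes with a peak 49.9% were higher and 32.0% lower in Allo. Gfi1b was the 1 gene of 10 with more peaks in every Allo than in every Syn library, against 2.34% of all genes. No gene of the 10 had fewer peaks in every Allo library, against 1.3% of all genes. These are counts not scaled to list length. Per 10000 peaks of the library, the mean of Alox5 was lower in Allo (Allo minus Syn -0.0107), and those of the other genes were higher. Such densities did not overlap at Gfi1b and at Avil, the latter with 0.136 to 0.278 in Syn and 0.318 to 0.612 in Allo. The share over all genes was not computed for densities. With lists of matched length the counts of Gfi1b overlapped, and Dclk1, Alox5, Ptgs1 and Sh2d6 had more peaks in every Allo library instead. Without Syn 2 there were 3 such genes (Pou2f3 and Dclk1 beside Gfi1b), and without Allo 1 there were 2 (Avil beside Gfi1b). The share over all genes was not computed for these changed settings, so these counts have no background.

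**Figure D2:**
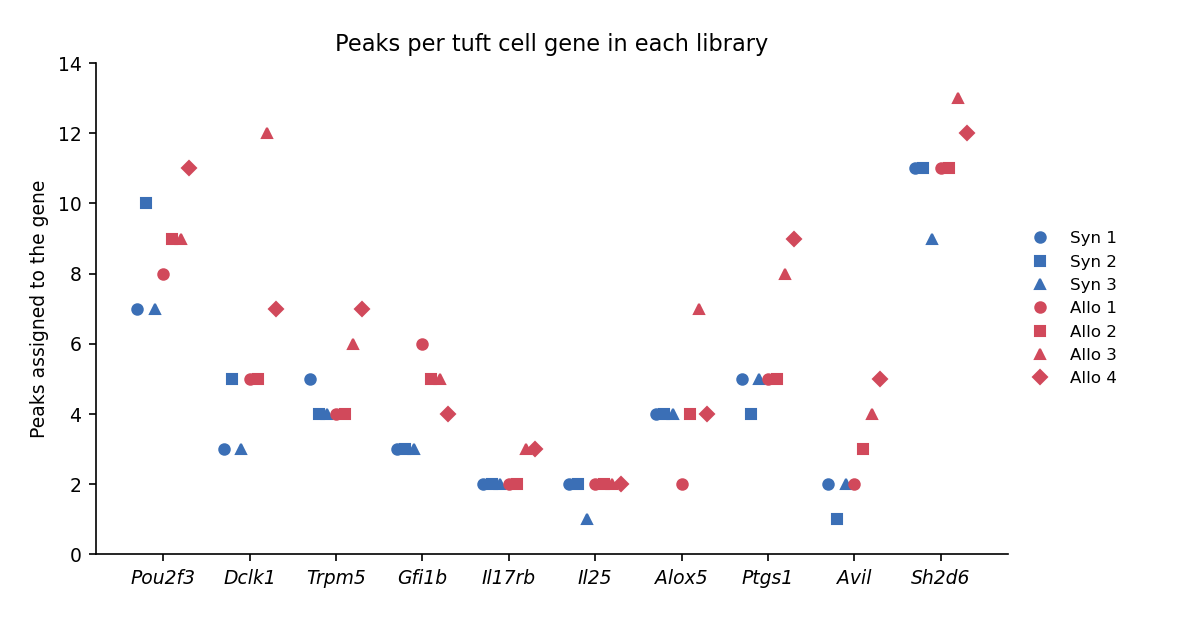
Number of peaks assigned to each of the 10 genes (vertical axis) in the 3 Syn (blue) and 4 Allo libraries (red), 1 point for each library. Only at Gfi1b do all Allo points, 4 to 6 peaks, lie above all Syn points, 3 peaks each; at Dclk1, Ptgs1 and Avil the highest points are Allo 3 and Allo 4.

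Most regions were either common to all libraries or thinly held. Of the 76 regions, 31 (40.8%) had a peak in all 7 libraries, against 48.5% of all merged regions. Another 26 (34.2%) were seen in Allo libraries alone, against 21.0% of all regions. In a Syn library alone 1 (1.32%) was seen, against 6.63% of all regions with peaks in Syn libraries alone. Most of the 26 were not common to the Allo group, as 17 were held by Allo 3, Allo 4 or both and by no other library. These 17 were 22.4% of the 76, against 14.3% of all regions. The 1 region with a peak in all 4 Allo and no Syn library, against 1.14% of all regions, was the start of Gfi1b. It rests on weak peaks: with a −log10 q of at least 5, or with lists of matched length, the start of Gfi1b no longer qualified. Then 2 regions, at Dclk1 and Pou2f3, or 3, at Dclk1, Alox5 and Pou2f3, held the pattern, against 1.12% and 1.16% of all regions. The count was 3 without Syn 2 or without Allo 2, and 2 without Syn 3 or without Allo 1, each time with the Gfi1b start among them, and 1.54 to 2.37% of all regions held the pattern in these 4 settings. The opposite pattern, all 3 Syn and no Allo library, occurred at 0 of the 76 regions and at 1.01% of all regions. A further 7 regions (9.21%) had a peak in all 4 Allo libraries and in 1 or 2 Syn libraries, against 2.89% of all regions. The mirror pattern, all 3 Syn and 1 to 3 Allo libraries, was seen at 4 (5.26%), against 9.44% of all. The 45 regions outside the common set were weak and narrow, with a median rank percentile of 20.5 and a median width of 365 bp.

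**Figure D3:**
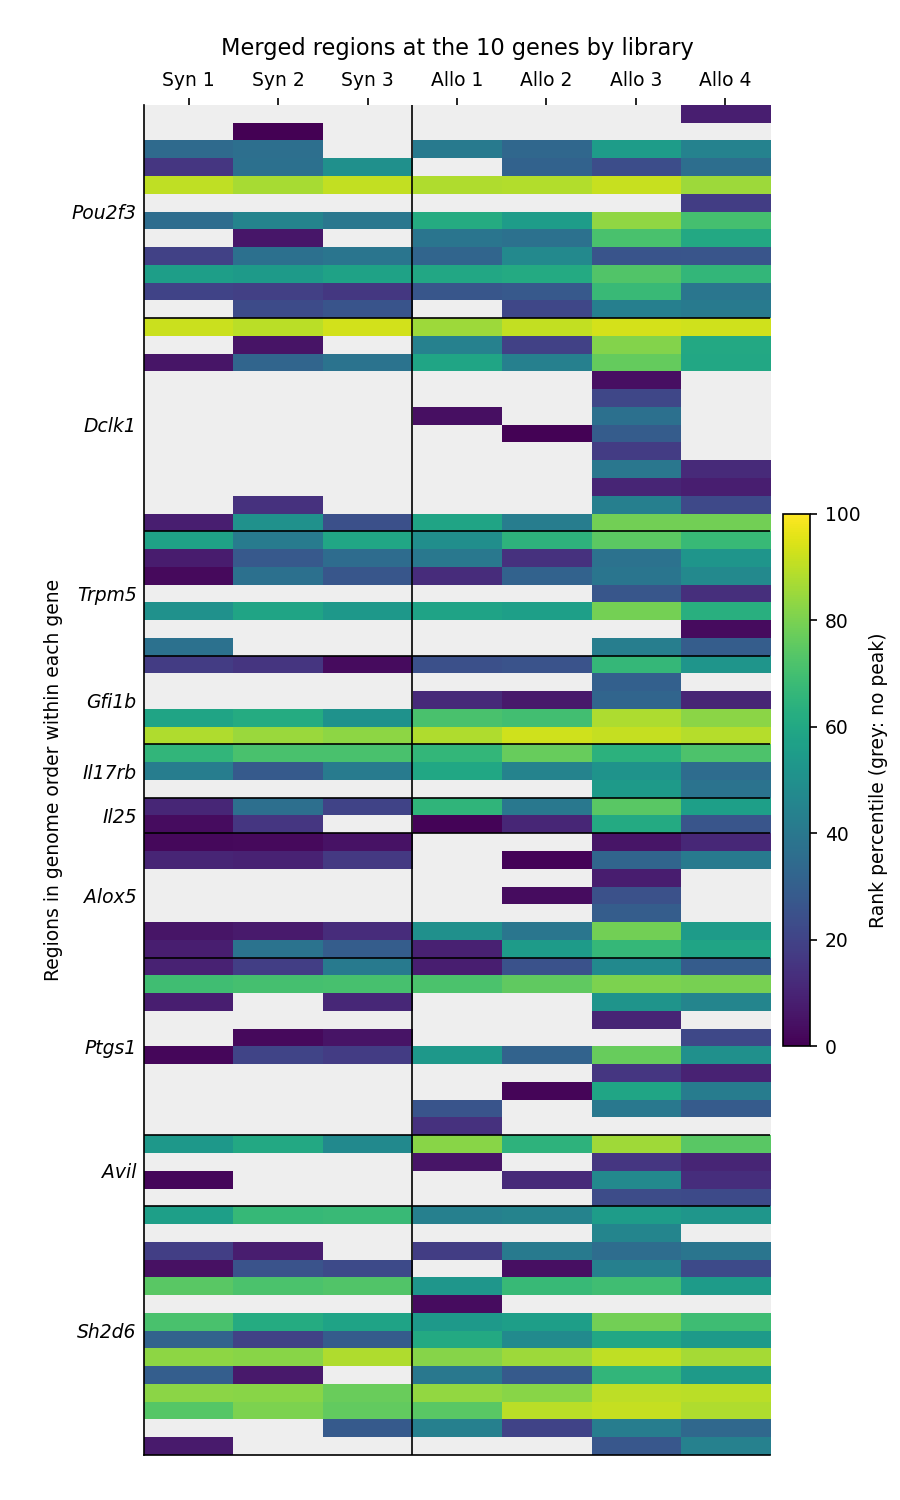
Rank percentile (colour, from 0 to 100) of each of the 76 merged regions (rows, in genome order within each gene) in the 7 libraries (columns), with grey where a library had no peak. Rows filled across all 7 columns are the 31 common regions; 17 rows are filled in the Allo 3 or Allo 4 column alone, 5 of them in Dclk1.

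Among the 31 common regions the ranks leaned to Allo. They ranked higher in every Allo than in every Syn library at 12 regions (38.7%), against 8.06% of all 50324 common regions. At 2 regions (6.45%), both near Sh2d6, they ranked lower in every Allo library, against 6.58% of all. With lists of matched length, 19 regions were common to all libraries and 6 of them ranked higher, against 7.62% of all common regions. Without Allo 1 and Allo 2, 23 of 35 ranked higher, and the share over all common regions rose as well, to 33.8%. Ranked by the deposited fold enrichment, 8 of the 31 ranked higher, against 5.57% of all. By that ranking 9 of the 14 regions that separated the groups still did so, and the other 5 are named with their genes. The mean rank was higher in Allo at 27 of the 31 regions and at 54.1% of all common regions. The median difference of means was 10.4 percentile points, against 0.437 over all common regions. The median rank of the 31 regions was 50.5, 50.6 and 47.3 in Syn and 58.9, 55.1, 76.5 and 63.0 in Allo, and the groups did not overlap. Over all common regions the medians were 64.7, 65.6 and 66.8 in Syn and 59.4, 66.5, 71.2 and 68.9 in Allo, so Allo 3 and Allo 4 stood high there too.

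The regions were then divided by their Syn mean, which by itself favours higher Allo values in the lower band, as the values over all common regions show. Of the 15 common regions with a Syn mean below the 50th percentile, 8 ranked higher in every Allo library and 0 lower, with a median difference of 27.4 points. Of all common regions in that band, 12.5% ranked higher and 3.34% lower, with a median difference of 5.14. Of the 16 regions at or above it, 4 ranked higher and 2 lower, with a median difference of 5.31. Over all such regions 6.15% ranked higher and 7.96% lower, with a median difference of -0.0695. The position of the summits hardly differed: the median shift of a region's summit between group means was 16.2 bp, and 14.9 bp over all common regions.

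**Figure D4:**
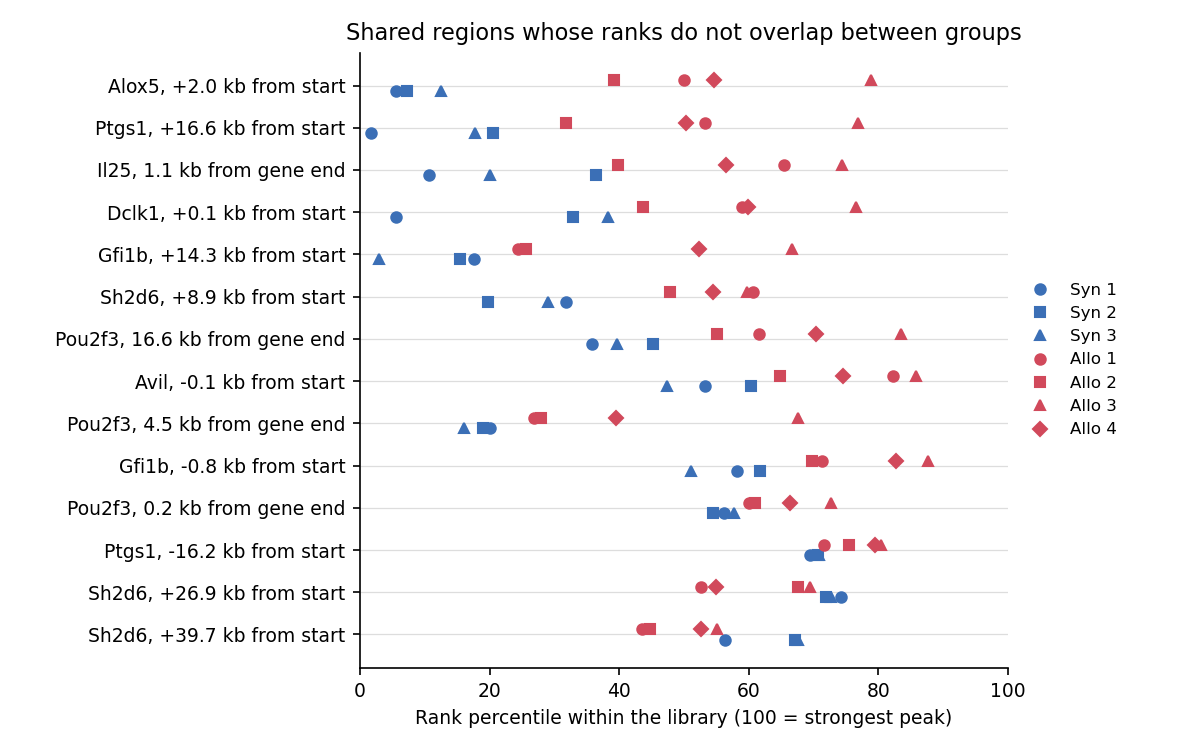
Rank percentile within the library (horizontal axis) of the 14 common regions whose values do not overlap between Syn (blue) and Allo (red), named by gene and distance of the summit from the start, or from the nearer gene end where the start is not in the table. Points are libraries; the 12 upper regions rank higher in Allo, most at Alox5, where Syn lies at 5.57 to 12.5 and Allo at 39.3 to 78.8, and the 2 lower ones, at Sh2d6, rank lower.

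Pou2f3 (chr9:43123927-43205755) encodes the POU-domain factor that tuft cells require. It had 12 regions and 7, 10 and 7 peaks in Syn against 8, 9, 9 and 11 in Allo. Its strongest region, inside the body at chr9:43149801-43151568, ranked at 90.4, 86.9 and 91.0 in Syn and at 87.9, 88.3, 91.4 and 85.5 in Allo. The gene was thus strongly open at one site in the stem cells of both groups, with overlapping ranks. The body region 16.6 kb from the nearer gene end (chr9:43188222-43189613) ranked at 35.7, 45.2 and 39.7 in Syn and at 61.6, 55.1, 83.5 and 70.4 in Allo. The region over the gene end at chr9:43205175-43206388 ranked at 56.1, 54.4 and 57.7 in Syn and at 60.1, 61.0, 72.8 and 66.4 in Allo. Here the groups lay close, and ranking by the deposited fold enrichment put the mean difference at -0.381, with overlap. The region 4.53 kb beyond that end (chr9:43210099-43210688) ranked at 20.03, 19.04 and 16.04 in Syn and at 26.8, 28.0, 67.6 and 39.4 in Allo. Another site, 5.33 kb inside the same end (chr9:43199824-43200592), had a peak in all Allo libraries, at 38.9, 37.3, 71.1 and 60.3, and in Syn 2 alone of the controls, at 5.90.

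Gfi1b (chr2:28609450-28621982, minus strand) encodes a zinc-finger repressor of tuft cells that is also known from the erythroid and megakaryocyte lineages. Every Syn library held 3 peaks there, and Allo 1 to 4 held 6, 5, 5 and 4. Part of that count was a broken peak: downstream of the gene, Allo 1 had 3 separate peaks and Allo 2 had 2 within what was a single peak elsewhere. Counted as merged regions, Gfi1b had 3 in every Syn list, against 4, 4, 5 and 4 in Allo. The region over the start (chr2:28621769-28622100) ranked low in the Allo libraries, at 11.9, 6.84, 32.7 and 10.2, and had no peak in Syn. It also lies in a long non-coding RNA gene, Gm52548, and the 2 cannot be told apart. The region 834 bp upstream of the start (chr2:28622395-28623256) was open in all 7, at 58.2, 61.7 and 51.1 in Syn and at 71.2, 69.7, 87.6 and 82.7 in Allo. Its means were 57.0 ± 5.39 (SD, n = 3) and 77.8 ± 8.72 (SD, n = 4), and ranked by fold enrichment the groups overlapped. The region 14.3 kb downstream of the start, beyond the gene (chr2:28606784-28608246), ranked at 17.7, 15.4 and 2.86 in Syn and at 24.4, 25.7, 66.6 and 52.3 in Allo, again with overlap when ranked by fold enrichment. The strongest region, 8.33 kb upstream (chr2:28629567-28630831), did not separate the groups, at 88.3, 84.8 and 82.9 in Syn and 87.9, 92.7, 91.2 and 88.9 in Allo.

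**Figure D5:**
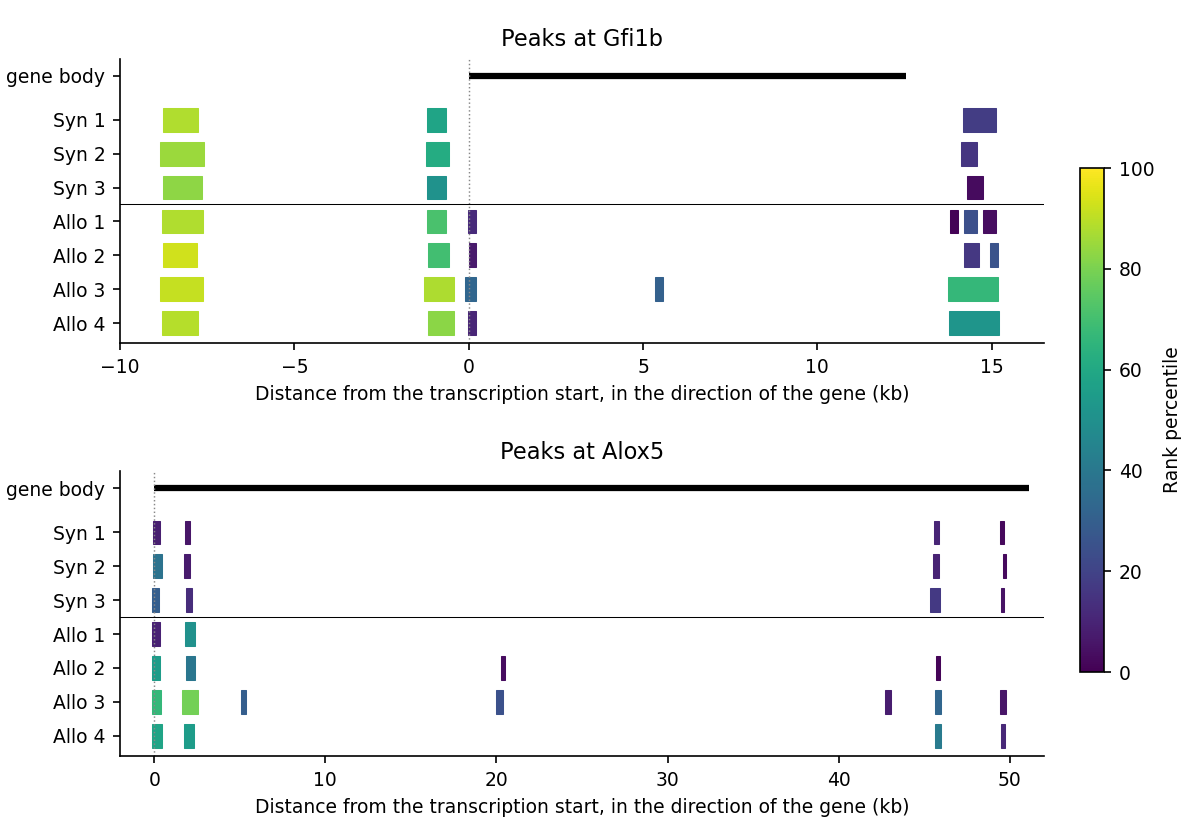
Peaks of each library at Gfi1b and Alox5, drawn to scale by distance from the transcription start in the direction of the gene (horizontal axis, kb) and coloured by rank percentile from 0 to 100; the black bar is the gene body. At Gfi1b all 4 Allo and no Syn libraries have a weak peak at the start. In Allo 2 it begins 7 bp inside the gene. At Alox5 the peak 2.02 kb into the gene is darker (weaker) in Syn, at 5.57 to 12.5, than in Allo, at 39.3 to 78.8.

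Trpm5 (chr7:143071529-143094642, minus strand), the channel that depolarises tuft cells, showed no region that separated the groups. It held 5, 4 and 4 peaks in Syn and 4, 4, 6 and 7 in Allo. The region 544 bp into the gene (chr7:143093793-143094287) ranked at 50.5, 58.4 and 53.2 in Syn and at 57.9, 56.6, 79.2 and 63.0 in Allo, and the highest Syn value exceeded the lowest 2 Allo values. Its highest-ranked region, 12.4 kb into the gene (chr7:143081773-143082478), ranked at 57.7, 41.4 and 59.1 in Syn and at 49.4, 64.5, 74.9 and 67.3 in Allo.

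Il25 (chr14:54932695-54935837), the tuft cell cytokine, held 2, 2 and 1 peaks in Syn and 2 in each Allo library. The region 1.11 kb outside the gene (chr14:54931353-54931902) ranked at 10.6, 36.4 and 20.1 in Syn and at 65.4, 39.9, 74.4 and 56.4 in Allo. Allo 2 lay only a little above Syn 2 there, and the other Allo libraries well above all Syn libraries; ranked by fold enrichment the groups overlapped. The region over the near gene end (chr14:54932616-54933140) had no peak in Syn 3, and ranked at 3.35 and 15.99 in Syn 1 and 2 and at 0.782, 10.7, 61.1 and 26.3 in Allo.

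Il17rb (chr14:29996168-30008896, minus strand) encodes a subunit of the IL-25 receptor. Every Syn library held 2 peaks there, and Allo 1 to 4 held 2, 2, 3 and 3. Its leading region, at the far end of the gene (chr14:29995880-29996631), ranked at 65.9, 71.4 and 71.4 in Syn and at 66.1, 76.7, 64.3 and 72.3 in Allo, fully overlapping. Another protein-coding gene, Actr8, lies 773 bp from this summit, so the region cannot be given to Il17rb alone. The region over the start of Il17rb (chr14:30008634-30011103) was assigned to Chdh, and ranked at 90.1, 87.3 and 88.2 in Syn and at 89.6, 94.0, 90.7 and 92.2 in Allo. None of its 3 regions separated the groups, and whether Il25 and Il17rb differed in this was not tested.

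Alox5 (chr6:116410071-116461178, minus strand) encodes 5-lipoxygenase, which opens the leukotriene pathway. Every Syn library held 4 peaks there, and Allo 1 to 4 held 2, 4, 7 and 4, so the counts overlapped. The region 2.02 kb into the gene (chr6:116458617-116459571) ranked at 5.57, 7.19 and 12.5 in Syn and at 50.02, 39.3, 78.8 and 54.7 in Allo. At 47.3 points this was the largest difference among the 31 common regions, from near the bottom of the Syn lists to 39.3 or above in Allo. The start itself (chr6:116460716-116461312) ranked at 8.35, 38.0 and 29.5 in Syn and at 9.37, 54.9, 66.8 and 58.6 in Allo, where Allo 1 fell among the Syn values. Toward the other end of the gene, the region at chr6:116411394-116411777 was held by all Syn libraries, at 2.33, 2.39 and 4.81, and by Allo 3 and Allo 4 alone of the Allo libraries, at 5.52 and 11.1.

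Ptgs1 (chr2:36216742-36258593, plus strand) encodes cyclooxygenase 1, which opens the prostaglandin pathway. It held 5, 4 and 5 peaks in Syn and 5, 5, 8 and 9 in Allo, and 5 of its 10 regions had no peak in any Syn library. The body region 16.6 kb downstream of the start (chr2:36246768-36247431) ranked at 1.66, 20.6 and 17.7 in Syn and at 53.2, 31.8, 76.8 and 50.3 in Allo. The listed start lies inside the gene body. The strongest region of Ptgs1 (chr2:36213027-36214447) lay 16.2 kb upstream of that start, but only 2525 bp outside the gene, beyond its upstream end. It ranked at 69.5, 70.6 and 70.8 in Syn and at 71.6, 75.4, 80.5 and 79.5 in Allo, a narrow gap with Allo 1 nearest to Syn. The start (chr2:36230026-36230899) was open in Syn 1 and Syn 3, at 8.35 and 11.1, and in Allo 3 and Allo 4, at 51.8 and 45.6, and held no peak in the other 3 libraries.

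Avil (chr10:127000065-127020994, plus strand) encodes advillin, an actin-binding protein of the tuft cell's microvilli. It held 2, 1 and 2 peaks in Syn and 2, 3, 4 and 5 in Allo. Its start (chr10:127000124-127001639) ranked at 53.2, 60.3 and 47.3 in Syn and at 82.3, 64.8, 85.8 and 74.6 in Allo. The means were 53.6 ± 6.52 (SD, n = 3) and 76.9 ± 9.31 (SD, n = 4), with Allo 2 again nearest to Syn. The next protein-coding gene, Ctdsp2, lies 666 bp from this summit, so the region cannot be given to Avil alone. Its other 3 regions were held by 2 to 4 libraries each.

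Dclk1 (chr3:55242303-55539068, plus strand) encodes a microtubule-associated kinase widely used as a tuft cell marker. It held 3, 5 and 3 peaks in Syn and 5, 5, 12 and 7 in Allo, and 5 of its 12 regions were held by Allo 3 or Allo 4 alone. The region over its first start (chr3:55242030-55243045) ranked at 5.57, 32.8 and 38.2 in Syn and at 58.9, 43.7, 76.5 and 59.8 in Allo. This region was thus open in both groups but ranked in the lower part of each Syn list. Its Syn 1 peak did not reach the 250 bases before the start or the first 50 of the gene, as those of the other libraries did. The region 9.56 kb upstream (chr3:55232420-55233467) had a peak in Syn 2 alone of the controls, at 5.24, and ranked at 43.8, 19.2, 81.4 and 60.3 in Allo. The strongest region, 15.3 kb upstream (chr3:55226629-55228195), ranked high in both groups, at 92.1, 89.7 and 93.01 in Syn and 85.2, 90.8, 93.4 and 92.7 in Allo.

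Sh2d6 (chr6:72513641-72534206, minus strand), an SH2-domain gene used as a tuft cell marker, was the gene with the most regions, 14. It was the 1 gene of the 10 without a peak within 1 kb of its listed start in any library. That start, at chr6:72520036, lies inside the gene body. The region over the upstream gene end (chr6:72534097-72534422) had a peak in Syn 3 alone of the controls, at 28.3. In Allo 1 to 4 it ranked at 43.7, 20.2, 42.6 and 33.6. The gene held 11, 11 and 9 peaks in Syn and 11, 11, 13 and 12 in Allo. The region beyond the end of the gene, 8.85 kb downstream of the start (chr6:72510842-72511641), ranked at 31.9, 19.8 and 29.0 in Syn and at 60.7, 47.8, 59.8 and 54.5 in Allo. Farther out on that side the order turned. The region 26.9 kb downstream of the start (chr6:72492827-72493434) ranked at 74.3, 71.9 and 72.7 in Syn and at 52.6, 67.6, 69.5 and 54.9 in Allo, with overlap when ranked by fold enrichment. The region 39.7 kb downstream (chr6:72479883-72481040) ranked at 56.3, 67.1 and 67.6 in Syn and at 43.5, 44.7, 55.1 and 52.7 in Allo. Both lie more than 10 kb outside the gene and were given to it only because no other protein-coding gene was nearer. Its strongest region (chr6:72512223-72513317) overlapped between the groups, at 83.1, 82.1 and 88.0 in Syn and 81.7, 85.5, 90.5 and 86.4 in Allo.

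Other genes of the tuft cell programme were described in 4 further lists, also chosen with earlier results known. The 17 other tuft cell markers had a density of 10.3, 9.23 and 10.1 peaks per 10000 in Syn and 13.3, 10.5, 13.6 and 12.6 in Allo, a ratio of 1.27 without overlap. Of their 56 common regions, 14 (25.0%) ranked higher and 5 (8.93%) lower in every Allo library, against 8.06% and 6.58% of all common regions, the shares to which the counts of the other lists compare too. The adaptor gene Fyb had 6 peaks in every Syn list, against 10, 11, 15 and 13 in Allo, and was the 1 gene of these 17 with more peaks in every Allo library, against 2.34% of all genes. The 8 other eicosanoid genes had a density of 5.98, 5.29 and 6.02 in Syn and 6.51, 6.57, 6.41 and 6.36 in Allo, and 6 of their 31 common regions (19.4%) ranked higher and 1 lower. None of these 8 had counts that separated the groups.

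The chemosensory cascade and the type 2 circuit differed less in density. The 11 chemosensory genes had 6.67, 7.06 and 6.80 peaks per 10000 in Syn and 7.62, 6.83, 7.65 and 6.73 in Allo, which overlapped, with 7 of 36 common regions (19.4%) higher and 3 lower. Gnat3, which encodes the taste G protein alpha-gustducin, had 1 peak in every Syn list, against 2, 2, 3 and 3 in Allo. It was the 1 gene of these 11 with more peaks in every Allo library, against 2.34% of all genes. The 8 genes of the type 2 circuit include receptor subunits of IL-4, IL-13 and IL-25 and the signal transducer Stat6. Their density was 3.89, 3.94 and 3.66 in Syn and 4.13, 3.94, 3.60 and 3.92 in Allo. In this list 1 of 22 common regions (4.55%) ranked higher and 1 lower, and 0 genes had counts that separated the groups.

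Several of the 10 genes are also used by blood cells, so markers of other cells were read in the same way. The 7 pan-haematopoietic genes had 2.31 to 2.36 peaks per 10000 in Syn and 2.22 to 3.26 in Allo, with overlap, and 1 of 13 common regions ranked higher and 2 lower. Of the 7, only Cd53 had no assigned peak in any library, and Ptprc had 2 peaks in every Syn list, against 1, 2, 5 and 3 in Allo. Mast cell and basophil genes had 1.81 to 2.35 in Syn and 1.91 to 2.70 in Allo, with 0 of 7 common regions higher and 1 lower. Of these 8 genes only Fcer1a was at 0 throughout, while Kit held 5 to 7 peaks in Syn and 6 to 11 in Allo and Hdc 3 to 5 in both groups. Megakaryocyte and platelet genes, the other setting of Gfi1b, were lower in each Allo library, at 1.10 to 1.31 against 1.36 to 1.53, with Pf4 alone of 7 at 0 in all libraries. T cell genes had 0.654 to 0.695 in Syn and 0.675 to 0.794 in Allo, and 1 of 5 common regions ranked higher, at Lck, and 1 lower, at Zap70. Of the 7 T cell genes, Cd3d, Cd3g, Cd4 and Cd8a had no assigned peak, though a peak assigned elsewhere lay within 1 kb of the Cd4 start in all 7 libraries. Cd3e, Lck and Zap70 held 1 to 3 peaks in every library. Monocyte, macrophage and neutrophil genes had 1.90 to 1.96 in Syn and 1.59 to 2.33 in Allo, and 8 of 8 lacked a peak within 1 kb of a start in all libraries.

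Markers of the other epithelial fates gave a mixed picture beside the tuft cell genes. Stem cell genes had 10.5 to 11.4 peaks per 10000 in Syn and 10.8 to 11.9 in Allo, and 9 of their 59 common regions (15.3%) ranked higher and 5 lower. Counts separated the groups at Rnf43, an inhibitor of Wnt receptors, with 9 to 10 peaks in Syn and 11 to 14 in Allo, and at the transcription factor gene Sox9, with 6 to 8 and 9 to 11. These were 2 of 8 stem cell genes with more peaks in every Allo library, against 2.34% of all genes. Enteroendocrine genes had 2.09 to 2.62 in Syn and 2.70 to 3.06 in Allo, without overlap, while 0 of 7 common regions ranked higher. Goblet cell genes, at 5.14 to 5.57 and 5.26 to 6.12, Paneth cell genes, at 1.39 to 1.83 and 1.59 to 2.94, and enterocyte genes, at 3.94 to 4.45 and 3.60 to 4.73, overlapped between Syn and Allo. Among them the Paneth cell gene Mmp7 had 2 to 3 peaks in Syn and 4 to 7 in Allo, and the enterocyte gene Apoa4 had 3 in every Syn and 2 in every Allo list. Mmp7 was the 1 gene of 6 in its list with more peaks in every Allo library, against 2.34% of all genes. Apoa4 was the 1 gene of 8 in its list with fewer, against 1.3% of all genes. Whether the number of tuft cells or tuft-committed cells within the sorted Lgr5+ cells differed between the groups was not tested.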

How the data were processed

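The 10 genes, the other gene lists and the descriptions were chosen with earlier results of these data known. The deposited peaks, 1 list for each library, were not called on pools of libraries. Per the submitters' processing notes, MACS2, MACS3, Bowtie2, Trim Galore and the build mm10 were used, with no versions or roles. A calling threshold was not given in the sources used; no deposited peak had a −log10 q below 1.30. For each peak the authors' deposited values are a score, a fold enrichment (a ratio), a −log10 p-value and a −log10 q-value. Ranks used the last, ties sharing their mean rank; these values were used only within a list. No read counts were used here, so depth and its precision are unknown. Groups came from the sample titles, which number separate pools of mice.

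Genes, and starts for 17274 of 21631 of them, came from RefSeq tables (GRCm38.p6); the tables used give no exons or introns. Pou2f3 and Il25 have no entry in the promoter table, so either gene end stood for the start. A peak belonged to the gene holding its summit or the nearest within 50 kb. Peaks overlapping by at least 1 bp were merged.

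Named were all 10 genes, each region that separated the groups, each gene's region of highest median rank, and list genes whose counts did not overlap. The start regions, the gene-end region of Sh2d6, the near-separating regions of Pou2f3 and Dclk1 and single markers were added after their values were seen. No test was made. Scripts were tested on simulated data. Other settings tried were a minimum −log10 q of 5, matched list length, 501 bp summit windows, a 10 kb limit, bodies alone, ranking by fold, a 500 bp start window, a replicate block and the omission of libraries. Python 3.11.15, numpy 2.4.6, pandas 2.3.3 and matplotlib 3.10.9 were used.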

Additional observations from a re-analysis of the deposited data

How the results depend on the processing

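The density of peaks at the 10 genes was higher in each Allo than in each Syn library under the settings that could change this. These were a −log10 q of at least 5, matched list lengths, a 10 kb limit and gene bodies alone. The other settings kept the density of each library or only left libraries out, so they could not bring overlap. The difference of 1.54 peaks per 10000 became 2.17 with a −log10 q of at least 5 and 2.43 with lists of matched length, and ran from 1.23 to 1.82 when single libraries were left out. With a replicate block it was 1.40; same-numbered libraries correlated at 0.085, -0.009 and 0.053 in their deviations, so the numbers only name them. Other counts depended on the setting, and for counts of genes the share over all genes was not computed in the changed settings. With a −log10 q of at least 5, 2 genes had more peaks in every Allo library, 2 regions were Allo-only (in all 4 Allo lists and none of Syn; the Gfi1b start was lost), and the start peaks differed by 0.583 genes. With matched lengths these were 4 genes (Dclk1, Alox5, Ptgs1 and Sh2d6, without Gfi1b), 3 regions (again without the Gfi1b start) and 1.5 genes, and 6 of 19 common regions ranked higher. A 500 bp start window gave a difference of 1.17 genes. Of the 16 common regions in gene bodies alone, 5 ranked higher and 0 lower, against 8.06% and 6.58% of all common regions. A 10 kb limit also gave 0 lower, among 27 common regions. Without Allo 1 and 2 there were 7 genes, 10 Allo-only regions (6.90% of all regions) and 23 of 35 higher (33.8% of all common regions); without Allo 3 and 4, 1 Syn-only region (3.07% of all) and 13 of 31 higher (11.2% of all). Leaving out single libraries gave 1 to 3 genes with more peaks (3 without Syn 2, 2 without Allo 1). Allo-only regions numbered 1 to 3 (3 without Syn 2 or Allo 2, 2 without Syn 3 or Allo 1), against 1.33 to 2.37% of all regions. Higher regions numbered 12 to 16, while 8.81 to 16.1% of all common regions ranked higher. The cause was not tested. Of 186 values of the 14 named regions under alternatives, 185 kept their sign. The exception was the Pou2f3 region over the gene end, at -0.381 when ranked by fold. Ranking by fold also ended the separation at 4 more regions, 2 at Gfi1b, 1 at Il25 and 1 at Sh2d6 (26.9 kb from its start), and left 8 higher. The other settings ended none among the named regions they could rank. Many of the 186 values come from leaving out libraries. Groups already separated cannot come to overlap in that way, so these values are no check. Ranking by number from the top or among common regions alone, both chosen after seeing the data, left 12 of 31 regions higher. The shares over all common regions were 7.95% and 8.41%. Depth is unknown, so a missing peak says only that none was called.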

Other observations

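Single values of other tuft-associated genes were picked after they were seen and are given without a test. Regions present in every Allo list and absent from every Syn list also occurred in the further tuft cell lists: 4 of 129 regions of the other tuft cell markers (2 at Fyb, 1 each at Siglecf and Vav1), 2 of 77 chemosensory (Ffar3 and Gnat3), 2 of 38 of the type 2 circuit (Il13ra1 and Il17ra) and 0 of 60 eicosanoid regions, against 1.14% of all regions. The pattern was also seen outside tuft cell lists, at 2 of 115 stem cell regions (both at Sox9), 2 of 32 enteroendocrine (Cck and Sct) and 1 of 24 Paneth cell regions (Mmp7). Alox5ap, which encodes the partner protein of 5-lipoxygenase, had 3 common regions that ranked higher in every Allo library. One of them, 9.19 kb from the gene, ranked at 22.0, 48.7 and 35.7 in Syn and at 73.1, 51.1, 90.0 and 79.3 in Allo. The body region of Il33, an alarmin gene of the type 2 circuit, ranked at 20.9, 19.8 and 28.1 in Syn and at 53.4, 59.3, 44.99 and 52.6 in Allo. Stat6 went the other way 10025 bp from the gene, at 92.7, 91.6 and 92.6 in Syn and at 82.9, 86.0, 83.6 and 75.8 in Allo.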
